A study of Mus musculus with 8 samples.

Results

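The HOX genes of mouse brown adipose tissue, a fat that makes heat, were compared between 4 CLCF1-ATG transgenic mice (TG) and 4 wild-type mice (WT). Members were all rows of the expression table annotated as protein-coding whose symbol was Hox, a cluster letter from a to d and a number. This gave 40 of 54532 rows, or 40 of 22046 protein-coding rows, and 39 symbols, since Hoxd4 had 2 identifiers. The transgene's name points to CLCF1, a signalling protein related to interleukin-6. The labels name neither the depot, the strain, the sex nor the age, and they state neither the promoter nor the cell type of the transgene. Clcf1 itself stood at 78.7 to 89.9 FPKM in the TG libraries, against 0.434 to 3.403 FPKM in the WT libraries, so the libraries followed their labels. FPKM are fragments scaled to gene length and to a divisor for each library, so levels of different genes are comparable on this scale.

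HOX genes encode homeodomain transcription factors that give cells along the head-to-tail axis of the embryo their regional identity. They lie in clusters named HOXA to HOXD, and genes at the same relative place in different clusters share a paralog number. Low paralog numbers are switched on early and toward the head, high numbers late and toward the tail, and adult connective tissue and fat keep much of this pattern as a record of where they arose. In mice, Hoxc8 and Hoxc9 are known as genes with more transcript in white than in brown fat.

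Brown fat of both genotypes used mainly the middle paralog numbers, and in HOXD only Hoxd8 and Hoxd9 passed the filter described next. Of the 16 rows with paralog numbers 4 to 8, 11 passed the filter for testing (0.5 FPKM or more in 4 or more libraries), and their reads summed to 9010 over the TG libraries and 3626 over the WT libraries. Of the 8 rows with numbers 1 to 3, 2 passed the filter (599 reads in TG and 240 in WT). Of the 4 rows with number 9, only Hoxd9 passed (333 reads in TG and 91 in WT for all 4). None of the 12 rows with numbers 10 to 13 passed, and they held 8 reads in all TG libraries together and 4 in all WT libraries together. The TG libraries held more reads and had larger FPKM divisors than the WT libraries. Read counts here and below therefore show depth, and only FPKM compare the genotypes. The paralogs 4 to 8 made up 92.3% ± 1.14 of the summed HOX FPKM in TG and 93.3% ± 1.52 in WT (SD, n = 4 each). Thus 14 of the 40 rows were tested, 16 had reads but did not pass and 10 had no read in any library. For the 10 without a read, 3 reads over a group would have given 0.00785 to 0.0182 FPKM in TG and 0.0143 to 0.0331 FPKM in WT. Finding 0 reads does not exclude expression below about those levels. Such limits cover counting error only.

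**Figure D1:**
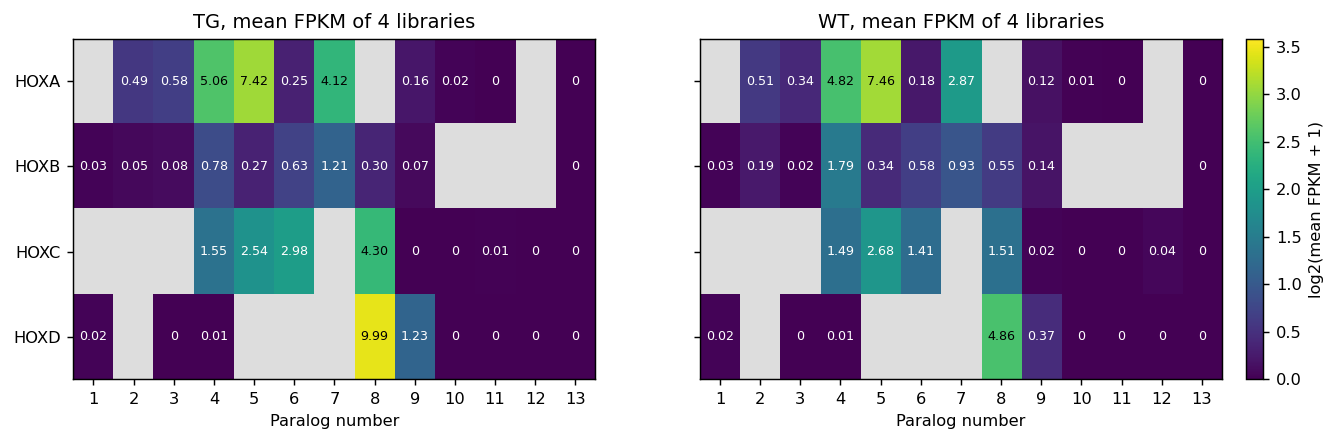
Mean FPKM of 4 TG libraries (left) and 4 WT libraries (right) for the HOX genes, with clusters as rows and paralog numbers as columns; colour gives log2(mean FPKM + 1), grey marks cells with no value shown, and the values of the 2 Hoxd4 rows are summed. The bright cells lie at numbers 4 to 8 in both panels, and Hoxd8, at 9.99 FPKM in TG and 4.86 FPKM in WT, is the cell with the widest gap in FPKM, while the gap on the colour scale is wider for Hoxc8, at 4.30 FPKM in TG and 1.51 FPKM in WT.

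Among the 14 genes that passed the filter, the order of the mean levels was not the same in TG and WT. Hoxd8 was the most abundant HOX transcript in TG, with 8.98 to 10.5 FPKM, all above the range of Hoxa5, the next in order, at 7.07 to 8.07 FPKM. In WT the most abundant was Hoxa5, with 5.63 to 11.03 FPKM, which overlapped with Hoxd8 at 3.65 to 6.53 FPKM. Hoxa4 followed as rank 3 in both genotypes. Hoxc8 held rank 4 in TG and rank 7 in WT, Hoxc6 rank 6 in TG and rank 9 in WT, and Hoxd9 rank 9 in TG and rank 14 of these 14 in WT. Hoxb4 moved the other way, at rank 11 in TG and rank 6 in WT. Of the 13 pairs of neighbours in the order, 3 did not overlap in TG (Hoxd8 with Hoxa5, Hoxa5 with Hoxa4, and Hoxb7 with Hoxb4) and 0 stood apart in WT, so most neighbours did not differ beyond their spread.

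Between the genotypes, 5 of the 14 tested HOX genes were higher in TG (Hoxd8, Hoxd9, Hoxc8, Hoxc6 and Hoxa7), 1 was lower (Hoxb4) and 8 did not pass an adjusted p of 0.05 (limma on log2(FPKM + 1), two-sided, Benjamini-Hochberg over all 12508 tested genes). Of all tested genes, 22.3% were higher and 21.8% lower in TG (44.1% in either direction), against 35.7% and 7.1% of these 14, and the median log2 change was 0.15 for the 14 and 0.01 for all genes. Among the 6890 protein-coding genes with mean levels in the range of the 14, 23.6% were higher and 16.6% lower. The 4 TG values lay wholly above the 4 WT values for 4 of the 14 and wholly below for 1, beside 22.1% and 20.5% of all tested genes (42.6% in either direction). Hoxd9 passed the filter mainly through the TG libraries, so these counts describe the tested members and not the whole family. With no filter, 30 HOX rows could be tested, of which 4 were higher and 1 lower, beside 9.59% and 9.22% of 26296 genes; 0 of the 16 rows under the filter were called by limma, the smallest adjusted p being 0.137.

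**Figure D2:**
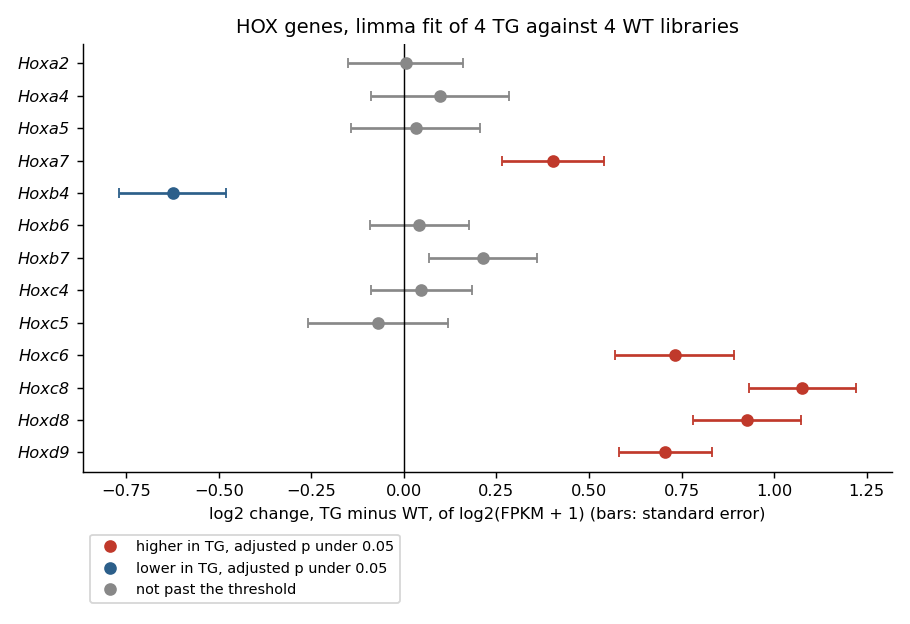
Log2 change (difference of log2(FPKM + 1), TG minus WT) of 13 tested HOX genes in order of cluster and paralog number; points are limma estimates from 4 TG and 4 WT libraries and bars are standard errors. Hoxc6, Hoxc8, Hoxd8 and Hoxd9 stand to the right at 0.71 to 1.08, Hoxa7 at 0.40, and Hoxb4 to the left at -0.62.

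In the HOXD cluster (chromosome 2, 74668310 to 74765142, mm10), both tested genes were higher in TG. Hoxd8, which in mice acts in the trunk region, lies on the plus strand at 74704615 to 74707933. Its promoter is shown because its level was the highest of the family in TG. The 250 bases before its start carried a CCAAT box at 62 bases and the hexamer AGGTCA of retinoic acid receptor sites at 135 bases before the start, both in capitals and not overlapping (RefSeq, GRCm38.p6, plus strand, chr2:74704365-74704614).
Hoxd8 promoter: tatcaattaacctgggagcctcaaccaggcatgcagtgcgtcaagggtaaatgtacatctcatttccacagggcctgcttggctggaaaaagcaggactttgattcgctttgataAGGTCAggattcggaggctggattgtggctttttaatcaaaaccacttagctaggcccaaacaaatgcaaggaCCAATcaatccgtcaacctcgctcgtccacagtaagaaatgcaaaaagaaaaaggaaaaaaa
Hoxd8 had 10.2, 10.3, 8.98 and 10.5 FPKM in TG 1, 2, 3 and 5, against 4.89, 4.39, 3.65 and 6.53 FPKM in WT 1, 2, 3 and 5. Every TG library was above every WT library, and the values rested on 563 to 667 reads per TG library and 133 to 205 reads per WT library. The means were 9.99 ± 0.692 FPKM in TG and 4.86 ± 1.22 FPKM in WT (SD, n = 4 each), a log2 change of 0.93 with a standard error of 0.146 (adjusted p = 0.000806, limma). It passed under all 24 alternatives tried, with adjusted p from 6.91e-05 to 0.0114.

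Hoxd9, the neighbour of Hoxd8 on the side of higher numbers (plus strand, 74697727 to 74700208), is known in mice for patterning the limb and the lower spine. It had 1.18, 1.57, 1.00 and 1.16 FPKM in the TG libraries, against 0.199, 0.418, 0.282 and 0.573 FPKM in the WT libraries. The groups did not overlap, although the WT values rested on only 5 to 14 reads per library. The log2 change was 0.71 with a standard error of 0.126 (adjusted p = 0.00165, limma), on a scale that understates the change of low genes: the ratio of the group means was 3.34. Both Hoxd8 and Hoxd9 shared no exonic base with another gene of GENCODE M21. The other 8 rows of the cluster did not pass the filter: Hoxd1 had 4 reads in TG and 2 in WT, the Hoxd4 rows had 2 in TG and 1 in WT, and Hoxd3 and Hoxd10 to Hoxd13 had none. Hoxd3 shares 62.8% of its exonic bases with other annotated genes, Hoxd4 among them, so its 0 is uncertain.

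The antisense transcript Hoxd3os1, which spans the Hoxd8 gene on the minus strand (74703248 to 74716130), was also higher in TG. It had 2.86, 2.25, 3.67 and 2.76 FPKM in the TG libraries, against 1.21, 1.09, 0.943 and 0.821 FPKM in the WT libraries, with no overlap. The log2 change was 0.94 with a standard error of 0.131 (adjusted p = 0.000385, limma), and it passed under all 22 alternatives that could test it. Hoxd8 and Hoxd3os1 overlap in span but share no exonic base in M21.

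In the HOXC cluster (chromosome 15, 102921103 to 103036852), Hoxc8 and Hoxc6 were higher in TG and Hoxc5 and Hoxc4 did not pass; whether the changes of these genes differ from each other was not tested. Hoxc8 (plus strand, 102990607 to 102994111), known in mice for the skeleton of the chest and for the shift between white and brown fat, had 3.64, 4.03, 5.59 and 3.94 FPKM in the TG libraries, against 1.53, 1.21, 1.97 and 1.33 FPKM in the WT libraries. Library 3 was the highest in each genotype, and the groups stood apart. The means were 4.30 ± 0.876 FPKM in TG and 1.51 ± 0.333 FPKM in WT (SD, n = 4 each). The log2 change was 1.08 with a standard error of 0.144 (adjusted p = 0.000300, limma), the largest of the 14 on the log2(FPKM + 1) scale. By the ratio of the group means Hoxd9 changed more, at 3.34 against 2.86 for Hoxc8. Hoxc6 (plus strand, 102998257 to 103011881), its neighbour toward low numbers and a regulator of chest vertebrae in mice, had 3.54, 3.33, 2.58 and 2.46 FPKM in the TG libraries, against 1.80, 1.82, 1.09 and 0.943 FPKM in the WT libraries. Its groups did not overlap, and the log2 change was 0.73 with a standard error of 0.160 (adjusted p = 0.00494, limma). Both calls held in all 23 alternatives that tested them.

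Hoxc5, next along the cluster, had 2.51, 2.97, 1.49 and 3.18 FPKM in the TG libraries, against 2.006 to 3.48 FPKM in the WT libraries; TG 3 was the lowest of the 8. Hoxc5 averaged 2.54 ± 0.752 FPKM in TG and 2.68 ± 0.665 FPKM in WT (log2 change -0.07, SE 0.189, limma adjusted p = 0.790), and 5.4% of its exonic bases lie in Hoxc10 as well. Hoxc4, at the low-number end, had 1.39 to 1.72 FPKM in TG, against 1.06 to 1.997 FPKM in WT (log2 change 0.05, SE 0.135, adjusted p = 0.803), so the TG values lay inside the WT range. The sign of these small changes flipped in some alternatives for both genes. Beyond Hoxc8 the cluster was almost without reads. Hoxc9, the other white fat gene named above, had 0 reads in TG, where 3 reads over the group would give 0.0136 FPKM, and 3 reads in WT, all of them in WT 2. Hoxc10 and Hoxc13 had no reads. Hoxc11 had 2 reads in TG and 0 in WT, and Hoxc12 had 0 in TG and 2 in WT.

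**Figure D3:**
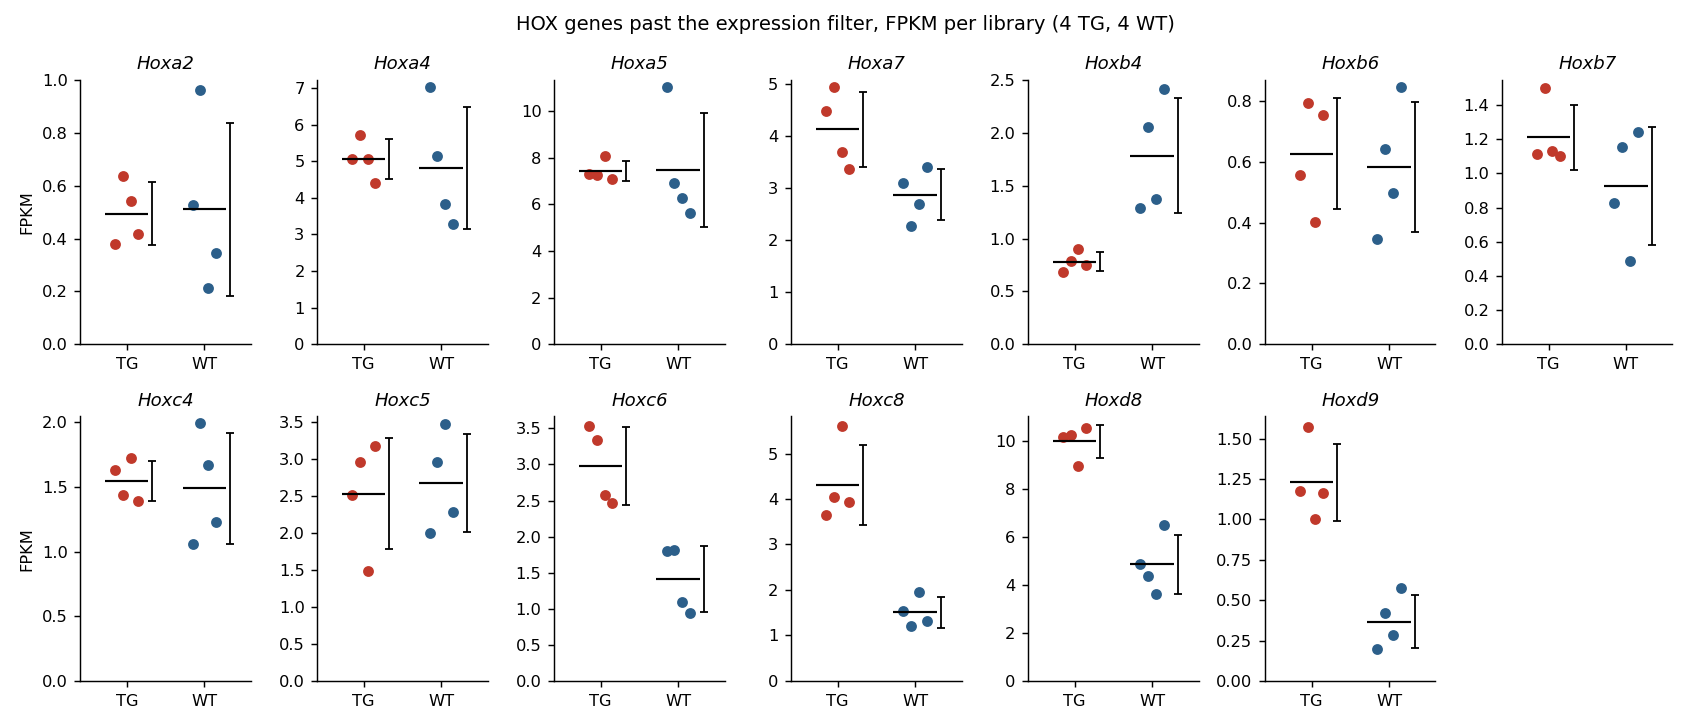
FPKM per library of 13 HOX genes that passed the filter, with the 4 TG libraries left and the 4 WT libraries right in each panel; horizontal lines are group means, vertical bars are ± 1 SD beside the points, and each vertical axis starts at 0 with its own range. The TG points of Hoxc6, Hoxc8, Hoxd8 and Hoxd9 all lie above the WT points, those of Hoxb4 all lie below, and those of the other 8 genes overlap with WT.

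In the HOXA cluster (chromosome 6), which held the largest share of HOX FPKM in both genotypes, 1 of 5 tested genes changed. Hoxa7 (minus strand, 52214491 to 52221854), a trunk gene, had 4.48, 4.94, 3.70 and 3.37 FPKM in the TG libraries, against 3.10, 2.27, 2.69 and 3.402 FPKM in the WT libraries. TG 5 lay below WT 5, so the groups overlapped. The log2 change was 0.40 with a standard error of 0.138 (adjusted p = 0.0385, limma), and the call was lost in 8 of 23 alternatives, where the adjusted p reached 0.111. Among these were the fits with no filter (adjusted p = 0.0828), without TG 1 (0.0959), TG 2 (0.111), TG 3 (0.0538), WT 2 (0.0990) or WT 3 (0.0759), and without TG 5 and WT 2 together (0.0766). Hoxa7 shares 20.4% of its exonic bases with the antisense gene Hoxaas3, and no source used here gives the strand setting of the counting, so reads of the shared stretch cannot be told apart.

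Hoxa5, which in mice acts in lung and neck development and in fat cells, had 7.31, 7.25, 8.07 and 7.07 FPKM in the TG libraries, against 11.03, 6.93, 6.25 and 5.63 FPKM in the WT libraries. The TG values were close to each other and lay inside the WT range, which WT 1 stretched upward. Its means were 7.42 ± 0.443 FPKM in TG and 7.46 ± 2.44 FPKM in WT (log2 change 0.03, SE 0.174, limma adjusted p = 0.899). Hoxa4 followed the same pattern, with 5.05, 5.72, 5.05 and 4.41 FPKM in the TG libraries, against 7.03, 5.13, 3.82 and 3.29 FPKM in the WT libraries, and WT 1 was again the highest (log2 change 0.10, adjusted p = 0.701). Hoxa2, which shapes the second pharyngeal arch, had 0.378 to 0.638 FPKM in TG and 0.212 to 0.963 FPKM in WT (log2 change 0.00, adjusted p = 0.986), with a sign that flipped in some alternatives, as did those of Hoxa5 and Hoxa4.

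The remaining HOXA rows lay under the filter. Hoxa3, a gene of thymus and parathyroid development, came nearest of them, with 0.334 to 0.788 FPKM in TG and 0.254 to 0.465 FPKM in WT, and reached 0.5 FPKM in only 2 libraries. Of the members that passed, Hoxa2 was the nearest to the threshold, with 4 libraries at 0.5 FPKM or more. Hoxa6 had 20 reads in TG and 8 in WT, Hoxa9 had 80 in TG and 31 in WT, and Hoxa10 had 6 in TG and 2 in WT. Their mean FPKM were 0.254, 0.158 and 0.0211 in TG, against 0.177, 0.115 and 0.0130 in WT, all with overlap. Hoxa11 and Hoxa13, the limb and urogenital genes at the end of the cluster, had no reads.

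Noncoding transcripts of the HOXA cluster moved in opposite directions. Hotairm1, an antisense RNA known from human myeloid cells, had 6.10, 7.79, 6.58 and 5.45 FPKM in the TG libraries, against 14.3, 10.4, 8.73 and 12.7 FPKM in the WT libraries. Its groups did not overlap, and the log2 change was -0.74 with a standard error of 0.159 (adjusted p = 0.00455, limma); with division by all reads it was not called (adjusted p = 0.0736). Hoxaas3, antisense to Hoxa7 and its neighbours, had 0.711, 0.866, 1.09 and 1.65 FPKM in the TG libraries, against 0.588, 0.283, 0.443 and 0.605 FPKM in the WT libraries. The groups did not overlap, but the call (log2 change 0.48, adjusted p = 0.0286) was lost without TG 3 (0.0639), TG 5 (0.0702), WT 2 (0.0752) or WT 3 (0.0579), with no filter (0.0784), and without TG 5 and WT 2 together (log2 change 0.29, adjusted p = 0.154). Halr1, a long noncoding RNA within 60 kb outside the cluster (plus strand, 52102949 to 52113684), was named after its values were seen. It had 0.684, 0.385, 0.0446 and 0.889 FPKM in the TG libraries, against 6.32, 8.56, 10.2 and 15.2 FPKM in the WT libraries, a log2 change of -2.86 with a standard error of 0.256 (adjusted p = 2.73e-05, limma) with no overlap. Of the 46 rows that are not HOX members inside the clusters, 5 passed the filter, the other 2 being Gm15050 (adjusted p = 0.686) and Gm27477 (0.963), and 31 had no read.

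**Figure D4:**
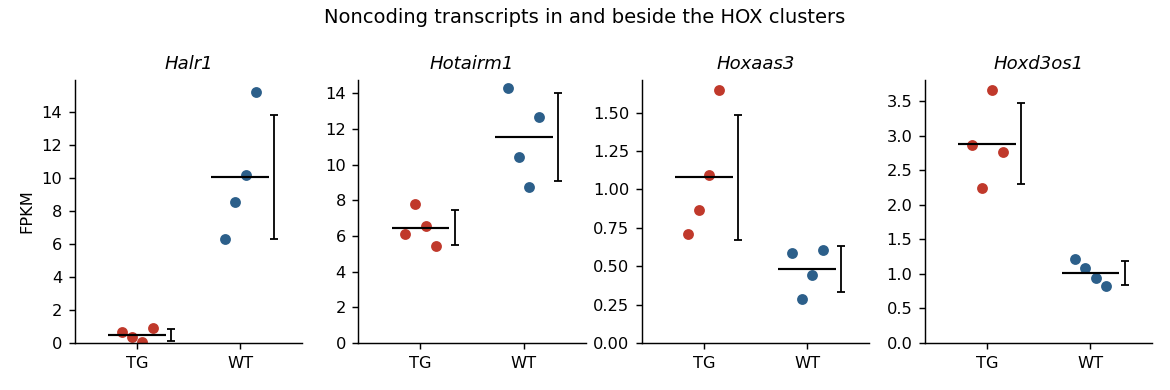
FPKM per library of Halr1, Hotairm1, Hoxaas3 and Hoxd3os1, with 4 TG libraries left and 4 WT libraries right in each panel; lines are means, bars beside the points are ± 1 SD, and each axis starts at 0 with its own range. The TG points lie below the WT points for Halr1 and Hotairm1 and above them for Hoxaas3 and Hoxd3os1.

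In the HOXB cluster (chromosome 11, 96194316 to 96368256), the least abundant in both genotypes, Hoxb4 was lower in TG. Hoxb4 (plus strand, 96318267 to 96321638), known for the neck vertebrae and for the growth of blood stem cells in mice, is the only HOX gene called lower, and its promoter is shown for that reason. The 250 bases before its start held 1 of the 5 motifs searched, the hexamer AGGTCA on the opposite strand (capitals, 81 bases before the start; RefSeq, GRCm38.p6, plus strand, chr11:96318017-96318266).
Hoxb4 promoter: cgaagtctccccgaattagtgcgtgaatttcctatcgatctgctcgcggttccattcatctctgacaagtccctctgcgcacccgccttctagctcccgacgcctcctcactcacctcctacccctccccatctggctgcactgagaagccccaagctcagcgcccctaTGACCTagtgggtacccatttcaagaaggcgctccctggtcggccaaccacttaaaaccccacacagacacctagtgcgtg
Hoxb4 had 0.687, 0.791, 0.904 and 0.748 FPKM in the TG libraries, against 1.29, 2.06, 1.38 and 2.42 FPKM in the WT libraries. The groups stood apart, with 42 to 53 reads per TG library and 39 to 71 reads per WT library. Its means were 0.782 ± 0.0917 FPKM in TG and 1.79 ± 0.543 FPKM in WT (SD, n = 4 each), a log2 change of -0.62 with a standard error of 0.144 (adjusted p = 0.00650, limma), and it was called in all 23 alternatives that tested it (adjusted p up to 0.0479).

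Hoxb7, 1.11, 1.499, 1.13 and 1.10 FPKM in the TG libraries, against 0.825, 1.16, 0.487 and 1.24 FPKM in the WT libraries, did not pass (log2 change 0.21, limma adjusted p = 0.267). Hoxb6 had 0.401 to 0.793 FPKM in TG and 0.346 to 0.845 FPKM in WT, with wide overlap (log2 change 0.04, adjusted p = 0.825). Hoxb8 reached 0.5 FPKM in 3 libraries only, WT 1, WT 3 and WT 5, and so was not tested in the main fit. It had 0.161 to 0.398 FPKM in TG and 0.282 to 0.644 FPKM in WT. With no filter its log2 change was -0.25 and it was not called (limma adjusted p = 0.178). Hoxb2, Hoxb3, Hoxb5 and Hoxb9 had 17, 30, 70 and 16 reads in TG, against 33, 5, 46 and 18 reads in WT. Their mean FPKM were 0.0545, 0.0767, 0.274 and 0.0693 in TG, against 0.186, 0.0249, 0.341 and 0.143 in WT, all with overlap. Hoxb3 shares 52.9% of its exonic bases with the antisense gene Hoxb3os. Hoxb1 had 6 reads in TG and 3 in WT, and Hoxb13 had none.

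The genes were also read by paralog number. In group 8, the ratio of the TG mean to the WT mean was 2.86 for Hoxc8 and 2.06 for Hoxd8, while Hoxb8, under the filter, had 0.297 FPKM in TG and 0.546 FPKM in WT. In group 4, Hoxa4 and Hoxc4 had ratios of 1.05 and 1.04, and Hoxb4 had 0.438. In group 7, Hoxa7 had 1.44 and Hoxb7 1.31. In group 5, Hoxa5 had 0.995 and Hoxc5 0.945, and in group 6, Hoxb6 had 1.07 and Hoxc6 2.11. The difference between paralogs was not tested.

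Summed by cluster, HOXC and HOXD were higher in every TG library than in any WT library. HOXD summed to 11.3 ± 0.783 FPKM in TG and 5.26 ± 1.35 FPKM in WT, and HOXC to 11.4 ± 0.325 FPKM in TG and 7.16 ± 1.15 FPKM in WT (SD, n = 4 each). HOXA overlapped, with 16.8 to 20.8 FPKM in TG and 13.9 to 23.0 FPKM in WT, and so did HOXB, with 3.17 to 3.71 FPKM in TG and 3.39 to 6.01 FPKM in WT. As shares of the HOX total, HOXD made up 25.1% ± 1.72 in TG and 15.6% ± 4.02 in WT. HOXC made up 25.4% ± 0.717 in TG and 21.6% ± 5.20 in WT, with overlap, and WT 3 had the highest HOXC share of all 8 libraries. HOXB made up 7.62% ± 0.256 in TG and 13.6% ± 3.42 in WT. The total was 44.9 ± 2.30 FPKM in TG and 33.7 ± 3.70 FPKM in WT. No test was made on these sums. With division by all reads the sums moved up in TG, and the direction for HOXB flipped to a log2 ratio of 0.011.

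**Figure D5:**
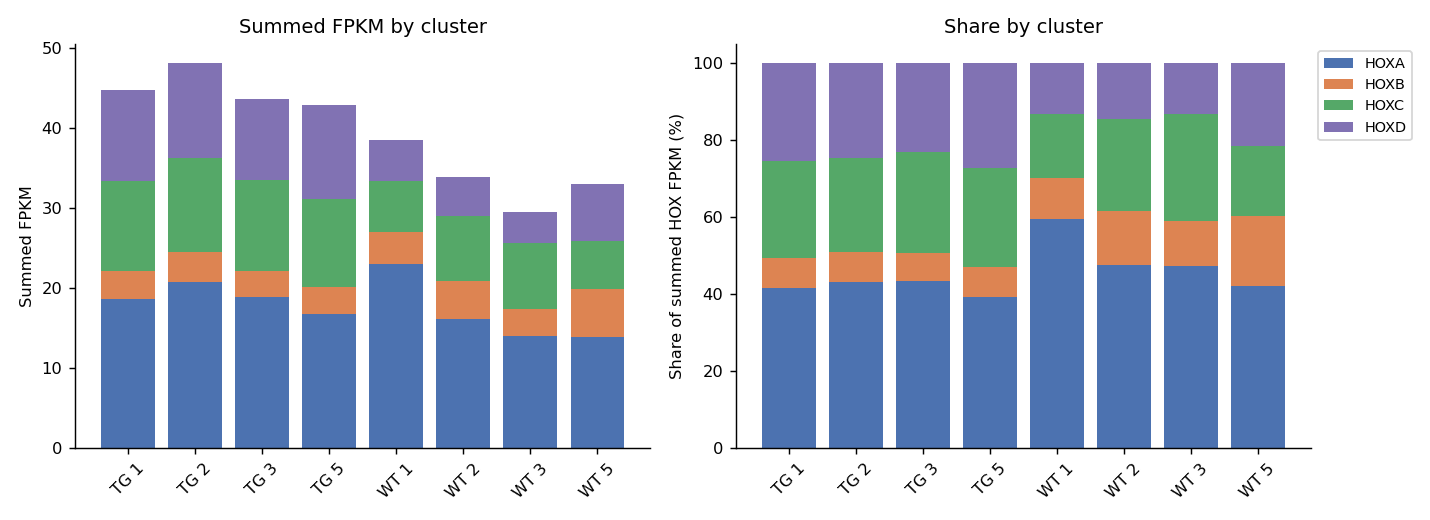
Summed FPKM of the 4 HOX clusters per library (left) and each cluster's share of the summed HOX FPKM in percent (right), with TG libraries left of WT libraries in each panel. HOXD and HOXC take more of the bar in absolute FPKM in all TG libraries, and HOXB takes 7.26% to 7.86% in TG and 10.6% to 18.2% in WT.

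The clusters also hold genes of microRNAs that pair with HOX transcripts. In mice, miR-196 is known to act on Hoxb8, Hoxc8 and Hoxa7, and through Hoxc8 on the browning of white fat. The mature forms are shown with the seed, bases 2 to 8, in capitals (RefSeq, GRCm38.p6): miR-196a from chr11:96265187-96265208 in HOXB and chr15:102973365-102973386 in HOXC, plus strand, and miR-196b from chr6:52230129-52230150 in HOXA, minus strand. miR-10a and miR-10b, from HOXB and HOXD, share another seed.
miR-196a-5p: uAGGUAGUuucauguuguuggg
miR-196b-5p: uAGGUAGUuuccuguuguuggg
miR-10a-5p: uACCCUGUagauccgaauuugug
miR-10b-5p: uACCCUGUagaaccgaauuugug
The 6 hairpin rows of these microRNAs and Mir615 had 0 reads, which says nothing of the mature forms, since TruSeq RNA libraries are not made to capture them.

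Matches to the miR-196 seed (ACTACCT on the transcript strand) stood in the 3′ untranslated regions of 9 of 39 HOX symbols and of 7 of the 14 tested, beside 6.79% of 21054 genes. Hoxa7 held 4 and Hoxc8 held 2, and Hoxb8, with no exact seed match, held a site with 21 Watson-Crick pairs and 1 G:U pair over the 22 bases of miR-196a. The sites are shown because these transcripts are the known targets, with the bases opposite the seed in capitals. Positions are counted from the start of the 3′ untranslated region. They give the first capital for Hoxc8 and Hoxa7, and the first base shown for Hoxb8. The Hoxa7 site is the one with the most pairs.
Hoxc8 site at base 135: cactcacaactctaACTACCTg
Hoxc8 site at base 892: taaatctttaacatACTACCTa
Hoxa7 site at base 909: actactagccctaaACTACCTa
Hoxb8 site at base 418: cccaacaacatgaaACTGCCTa
Hoxa4, Hoxa5, Hoxa9, Hoxb1, Hoxb6 and Hoxb7 were among the symbols with a single match. Of the tested genes with a match, Hoxc8 and Hoxa7 were called higher in TG and Hoxa4, Hoxa5, Hoxb6 and Hoxb7 were not called. Hoxd8, Hoxd9, Hoxc6 and Hoxb4, which were called, had no such match. Matches to the miR-10 seed (ACAGGGT) stood in 4 of 39 symbols, Hoxa3, Hoxb3 and Hoxd1 among them, beside 12.9% of all genes. A match is a description of letters and not of binding.

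Promoter windows of 250 bases could be matched for 22 HOX symbols, 24 windows in all; they are RefSeq's, and Hoxc8, Hoxc6, Hoxb7 and Hoxa4 were not among them. On both strands, CCAAT stood in 14 of 24, beside 33.8% of 32851 windows of all genes, AGGTCA in 6 beside 14%, TATAAA in 4 beside 12.4%, TGATNNAT, the joint HOX and PBX site, in 4 beside 7.68%, and TTCNNNGAA, the STAT site, in 1 beside 7.02%. The HOX windows had a median of 12.5 CpG pairs, against 6 in all windows.

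Partners and regulators of HOX proteins are to be read against the 22.3% of all tested genes that were higher and the 21.8% that were lower in TG. PBX, MEIS and PKNOX proteins bind DNA together with HOX proteins. Of 5 tested genes of these families 3 were higher in TG and 0 lower, with a median log2 change of 0.36. Meis2 averaged 0.909 ± 0.0835 FPKM in TG and 0.408 ± 0.0915 FPKM in WT (SD, n = 4 each; log2 change 0.44, limma adjusted p = 0.00557). Pbx2 changed by 0.47 (adjusted p = 0.0160), while Meis3 and Pknox1 did not pass. Retinoic acid switches on low-number HOX genes in the embryo. Of 14 tested genes of its synthesis, breakdown and receptors 7 were higher and 3 lower, with a median of 0.42. Aldh1a2, an enzyme that makes retinoic acid, stood at 4.90 ± 0.949 FPKM in TG and 0.451 ± 0.395 FPKM in WT (log2 change 2.05, adjusted p = 3.09e-05), and the receptor Rxra rose by 1.59. The receptor Rxrb fell by 0.71 and Dhrs9, a retinol dehydrogenase, fell by 0.93.

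Polycomb complexes keep HOX genes silent, and MLL complexes keep them on. Beside the same shares of all genes, 22.3% higher and 21.8% lower, of 28 tested Polycomb genes 8 were higher, 3 lower and 17 did not pass (median 0.26). Among them Phc1 rose by 0.58 and Rbbp4 by 0.76, and Phc2 fell by 0.57. Of 18 tested genes listed as MLL complexes, demethylases and other chromatin regulators 5 were higher and 2 lower (median 0.24). Psip1 rose by 0.46 and Men1 by 0.40. Kdm6a and Kdm6b, which both remove the Polycomb mark, went opposite ways: Kdm6a rose by 0.49 and Kdm6b fell by 0.77. Of 2 tested homeobox genes related to HOX, Meox1, a somite gene, fell by 1.61 (limma adjusted p = 0.000126), at 1.15 ± 0.354 FPKM in TG and 5.65 ± 1.74 FPKM in WT, and Meox2 did not pass (adjusted p = 0.0965). Of 17 other genes of position in fat and limb 7 were higher and 3 lower (median 0.22). Irx1 rose by 1.38 and Twist1 by 0.84, and Tbx3 fell by 0.65; Zic1, a gene of the brown depots, was at 0.680 ± 0.233 FPKM in TG and 0.631 ± 0.205 FPKM in WT (log2 change 0.04, adjusted p = 0.841).

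Markers of cell types moved with the genotypes, and their part in the HOX differences was not tested; in bulk tissue, fewer cells of a type and less RNA per cell cannot be told apart. Brown adipocyte markers, all with reads in every library, summed to 624.5 to 1035 FPKM in TG and 6974 to 9870 FPKM in WT (7 of 10 lower, 0 higher), and white adipocyte markers to 2883 to 3464 FPKM in TG and 622.6 to 749.3 FPKM in WT (8 of 9 higher, 1 lower; Tcf21 at 0 reads). Endothelial markers summed to 17.8 to 32.0 FPKM in TG and 65.5 to 165.4 FPKM in WT (7 of 7 lower), and smooth muscle and pericyte markers to 40.4 to 90.2 FPKM in TG and 121 to 210.5 FPKM in WT (5 of 7 lower, 1 higher). Schwann cell and neuron markers summed to 7.98 to 14.9 FPKM in TG and 59.7 to 83.3 FPKM in WT (1 of 4 lower; Th at 0 reads). Fibroblast markers overlapped, at 273.6 to 356.9 FPKM in TG and 224 to 416.5 FPKM in WT (3 of 12 higher, 3 lower), as did immune markers, at 27.6 to 44.2 FPKM in TG and 26.95 to 149.6 FPKM in WT (2 of 7 higher, 1 lower). Keratinocyte markers summed to 3.26 to 4.05 FPKM in TG and 1.23 to 2.39 FPKM in WT with Krt5, Krt14 and Krt15 at 0 reads (2 of 2 higher), and lymph node markers to 12.9 to 18.3 FPKM in TG and 0.706 to 7.96 FPKM in WT with Ccl21a and Ccl19 at 0 reads (1 of 1 higher). Skeletal muscle markers (0 of 9 called) summed to 144.8 to 1670 FPKM in TG and 13.1 to 2963 FPKM in WT. Of the libraries, TG 5 and WT 2 were far above the rest. Without these 2 libraries Hoxd8, Hoxd9, Hoxc8, Hoxc6 and Hoxb4 were still called, and Hoxa7 was not. The muscle sums of the libraries left still ran from 13.1 FPKM in WT 5 to 282.6 FPKM in TG 3, and the part of muscle was not tested.

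The libraries held 18494022 to 20183840 reads in TG and 13734231 to 15751302 in WT, of which 6.09% to 7.34% in TG and 24.1% to 37.5% in WT were mitochondrial. The FPKM divisors did not follow these totals, so other scalings were tried. Dividing by all reads moved the median log2 change of all genes to 0.32 and gave 7 higher HOX genes and 1 lower, beside 44.3% and 11.3% of 12583 genes. Relative to that median, Hoxc8 stood at 1.06, Hoxd8 at 0.98, Hoxc6 at 0.69, Hoxd9 at 0.57, Hoxa7 at 0.42 and Hoxb4 at -0.72. Hoxb7, among the genes added (adjusted p = 0.0308, limma), stood at 0.11 relative to it. Rescaling without the abundant genes moved the median to 0.14 and gave the same HOX counts as the deposited FPKM, 5 higher and 1 lower.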

How the data were processed

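RNA of brown adipose tissue from 4 TG and 4 WT mice, numbered 1, 2, 3 and 5 in each group, was sequenced from TruSeq RNA libraries, per the labels. The submitters' processing notes name bcl2fastq, HISAT2 2.0.5, featureCounts 1.5.0-p3 and mm10; neither the annotation release nor the strand setting is stated in these sources. The authors deposited FPKM per gene, with a divisor whose origin is not given. FPKM times gene length fell on whole multiples of 1 step per library, which gave the reads; these summed to 0.822 to 0.883 of the divisor in TG and 1.02 to 1.22 in WT.

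The TG and WT libraries were compared by limma 3.58.1 (R 4.3.3), using moderated statistics with an intensity trend and two-sided p values, after adding 1 to the FPKM and taking log2. Genes entered when 4 or more libraries had 0.5 FPKM or more, and p values were adjusted by Benjamini-Hochberg, with 0.05 as the threshold. The procedure was tested on counts simulated from the WT means with few changed genes, which does not cover the scaling of these libraries. A count model was not used, since the unit is FPKM; voom on the recovered reads was an alternative. Alternatives covered 24 settings of pseudocount, filter, scaling, variance model, replicate block and libraries left out. Exons and 3′ untranslated regions are from GENCODE M21, where 54495 of the table's identifiers were found, 98.3% at the same coordinates. Promoters and microRNAs are RefSeq's.

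The HOX members and the gene lists were chosen with earlier results of these data known. Any HOX member could be named, up to 4 members of each other list by lowest p, members making up counts of 5 or fewer, and the tested noncoding rows inside the clusters; Zic1 and Halr1 were chosen after their values were seen. A few counted members are not reported here by name or drawn. Figures were drawn with matplotlib 3.10.9.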

Additional observations from a re-analysis of the deposited data

Results flagged for a closer look

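Hoxb7 in TG 2 stood at 1.499 FPKM while the other TG libraries lay between 1.10 and 1.13 FPKM, a gap of 0.92 of the group's range, above the 95% critical value of Dixon's test. It was the 1 such library among 36 groups of 4 examined; chance gives such a gap in about 1 of 20 groups.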

How the results depend on the processing

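Over 24 alternatives, 296 of 324 HOX gene results kept their direction and their side of the threshold. The 8 lost calls were all of Hoxa7, and Hoxb7 was among 2 genes gained, in limma with division by all reads (0.43, adjusted p = 0.0308). With a filter of 5 FPKM 1 HOX gene was higher and 0 lower, beside 1445 higher and 1703 lower of all genes, since fewer HOX genes were tested. With division by all reads 5570 genes were higher and 1416 lower; the log2 ratio of summed FPKM, TG over WT, was then 0.59 for HOXA, 0.011 for HOXB (-0.42 as deposited), 1.09 for HOXC and 1.53 for HOXD, and Hoxc5 turned to 0.24, and to 0.054 with rescaling without abundant genes. With quantile normalisation Hoxb6 turned to -0.013 and Hoxa2 to -0.064. Leaving out 1 library, log2 changes ran from -0.072 to 0.21 for Hoxa5, -0.036 to 0.27 for Hoxa4, -0.16 to 0.090 for Hoxc5, -0.039 to 0.14 for Hoxc4, -0.033 to 0.12 for Hoxb6, -0.094 to 0.14 for Hoxa2; HOX counts were 4 to 5 higher and 1 lower, and all genes 2278 to 2743 higher and 2291 to 2819 lower. The cause of these changes was not tested.

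The replicate number as a block gave 4 higher and 1 lower HOX genes (Hoxa7 lost, adjusted p = 0.0898) and 2389 higher and 2458 lower of all genes. Same-numbered libraries had correlations of their deviations of -0.19, -0.17, 0.037 and -0.24 for numbers 1, 2, 3 and 5. No library correlated best with its own number. These correlations gave no sign of pairing by number, but with 4 libraries per group they cannot show that the mice were unpaired.

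Genes with few reads, such as Hoxd9 in WT, are limited by depth.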
